A study of Coturnix japonica with 144 samples.

Results

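In the brains of adult Japanese quail, 149 of the 21561 genes in the count table were at least 2 times higher in the hypothalamus than in both other regions sampled, nucleus taeniae (Tn) and, in the stria terminalis, its bed nucleus (BnST). They were chosen by their levels in these same libraries. Each count was scaled to the total of its library and is given as CPM, and a gene was taken when its median over the hypothalamus libraries was at least 2 CPM and at least 2 times the median of each other region, with 0.1 CPM added to every median. The rule allowed 150 genes, and 149 of the 13119 genes with a hypothalamic median of at least 2 CPM met it. The 21 genes that the study listed for treatment or brooding were left out, of which only UCN3 would have met it. Since the regional levels chose the genes, they are given here as a description, and tests were made only between sexes, treatments and response classes.

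The libraries came from 48 birds kept on a short photoperiod, which leaves them reproductively quiescent, with 1 library per region per bird. Each bird spent a night shut in a wooden box, either with chicks (the sensitization treatment, I: 11 females and 13 males) or without (control, C: 16 females and 8 males), and met unfamiliar chicks the next morning before the brain was taken. Birds also carried a response class, which the labels do not define: 17 R and 6 NR among sensitized birds, 5 S and 17 NS among control birds, and none for 3 birds. Every bird, controls included, had been with chicks just before sampling. The regions were taken with round punches from frozen sections, over the whole length of the hypothalamus and in a few slices each of the BnST and Tn.

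The hypothalamus lies at the base of the forebrain and links the brain to the pituitary. Its small cell groups make neuropeptides and releasing hormones that govern reproduction, feeding, stress, body temperature and parental care. The BnST and Tn belong to the telencephalon and take part in social and emotional behaviour, the Tn being regarded as a counterpart of part of the mammalian amygdala. The count table gives only Ensembl identifiers, and the sources used here pair none of the 149 with a gene name, so the genes are described by identifier and by how they vary, and no function is given for any of them.

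Levels by region are given for a pair of named genes, as a description. Only UCN3 had clearly different medians. As it met the rule on these same libraries, it is no separate check of the regional label. UCN3, which encodes the stress-related neuropeptide urocortin 3, had a median of 30.3 CPM (13.9 to 61.8) in the hypothalamus, 3.56 CPM (0.24 to 32.4) in the BnST and 0.23 CPM (0 to 20.4) in the Tn. NTS, which encodes neurotensin, was at similar medians of 71.3, 79.3 and 80.5 CPM in the same order. The highest Tn value of UCN3 was that of bird 26 alone, and the next was 3.23 CPM. Counts per library ranged from 9664414 to 19640873 in the hypothalamus, from 10047668 to 15504356 in the BnST and from 9789285 to 17288344 in the Tn. Libraries of different birds differed by more than counting error in every region, with a chi-square per gene of at least 7.07 for any pair of libraries of 1 region. The hypothalamus library of bird 17, labelled male, went against the label. The mean log2 CPM of 426 genes higher in males was 3.61 in this library. It was 4.13 to 4.30 in the 20 other males and 3.40 to 3.62 in the 27 females. These genes were chosen by the sex test on the hypothalamus libraries without bird 17. The gap between the other males and the females was thus fixed by the choice, in which bird 17 had no part. Its BnST and Tn libraries were not scored in this way. In the BnST the library of bird 49 lay 97.1 from the centre on the first principal component over all genes, against 26.1 for the next bird.

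Hypothalamic medians of the 149 genes ran from 2.01 to 3393 CPM, with 16 genes at 100 CPM or more and 73 under 10 CPM. Most were not confined to the hypothalamus. The smaller of the 2 regional ratios was under 3 in 93 genes, from 4 to under 10 in 21 genes, and at least 10 in 12 genes. At the head of the list was ENSCJPG00005012514, at 95.3 CPM in the lowest, 287 CPM in the median and 528 CPM in the highest hypothalamus library. Its BnST libraries ran from 0 to 8.53 CPM (median 1.22) and its Tn libraries from 0 to 4.63 CPM (median 0.33), so that no library of another region reached the lowest hypothalamus library. Next came ENSCJPG00005002248, at 4.69 to 50.4 CPM (median 10.6) in the hypothalamus and at 0 in 30 of 48 BnST libraries and 39 of 48 Tn libraries. ENSCJPG00005009332, the third, ran from 21.2 to 313 CPM (median 49.3), against at most 5.86 CPM in the BnST and 2.56 CPM in the Tn. Such a full separation of the regions held for 9 of the 149 genes. This count is a description, since the same levels chose the genes and no share over all genes was computed.

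**Figure D1:**
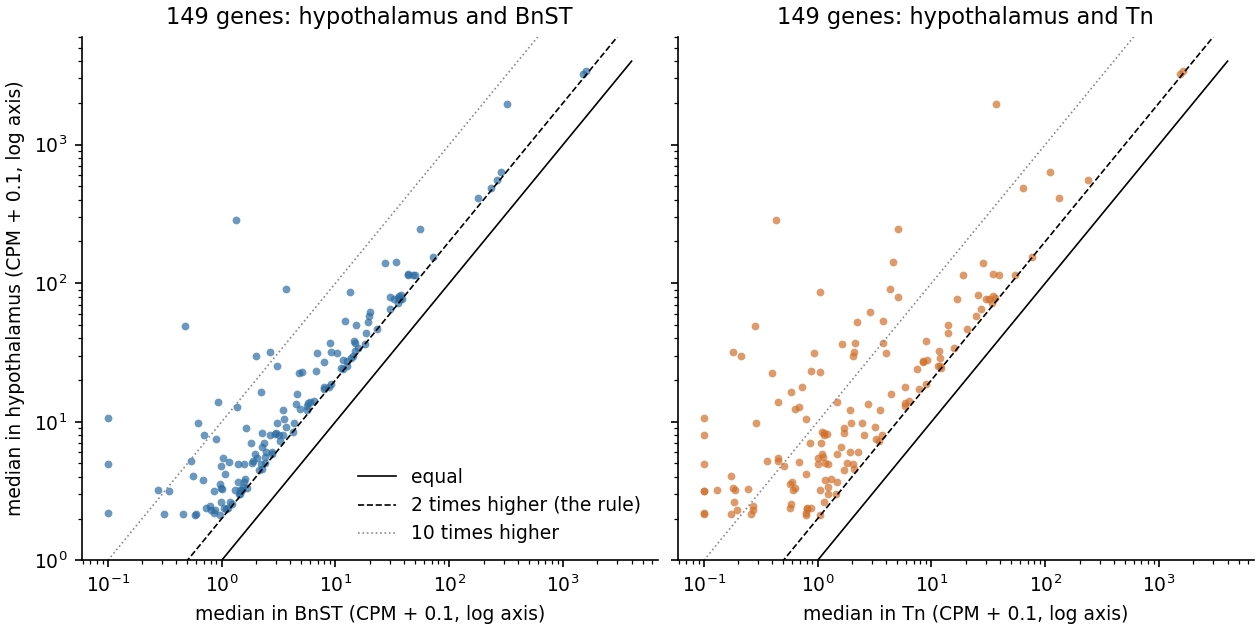
Median level of each of the 149 genes in the 48 hypothalamus libraries (vertical, CPM + 0.1, log axis) against its median in the BnST (left) or Tn (right), 1 point per gene, with lines for equal levels, for the 2-fold limit of the rule and for a 10-fold difference. Points lie close above the 2-fold line in the BnST panel and spread further from it in the Tn panel.

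Bird by bird, 54 genes were highest in the hypothalamus in all 48 birds and 131 in at least 40 birds, again with no share over all genes. The lowest such count was 30 birds, for ENSCJPG00005001667. The edge of the list was not a gap. The last gene inside by ratio, ENSCJPG00005013730, had a smaller ratio of 2.01 and the first outside, ENSCJPG00005004793, 1.999 (hypothalamic median 988 CPM). When the rule was applied to females alone, 119 of the 149 genes were chosen again, and 126 were with males alone. With control birds alone 108 were chosen again, and with sensitized birds alone 127.

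The rule did not compare the BnST with the Tn. Here 123 of the 149 genes had the higher median in the BnST, 23 in the Tn and 3 had equal medians. A BnST median at least 4 times that of the Tn was found in 31 genes and the opposite in 0 genes. The shares over all genes were not computed, so these counts describe the list and are not read as particular to it. The widest gap by ratio was that of ENSCJPG00005020174, with medians of 31.96 CPM in the hypothalamus, 2.58 CPM in the BnST and 0.08 CPM in the Tn. Its Tn level was near the floor, with 15 of 48 libraries at 0, so the 0.1 CPM added weighs on that ratio. ENSCJPG00005016487 lay at the other end, with 25.05, 2.94 and 11.8 CPM.

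Together the 149 genes took a median of 1.52% of a hypothalamus library's counts (1.19% to 2.31%), 0.601% in the BnST (0.166% to 1.36%) and 0.452% in the Tn (0.218% to 1.25%). The ranges overlapped, and 15 of the 48 hypothalamus libraries had a smaller share than the highest BnST library. Just 2 genes, ENSCJPG00005010517 and ENSCJPG00005007160, made up 46.2% of these hypothalamic counts. The share did not separate the sexes or treatments: in the hypothalamus it was 1.55% ± 0.293 (SD, n = 24) in control and 1.56% ± 0.259 (n = 24) in sensitized birds, and 1.58% ± 0.282 (n = 27) in females and 1.52% ± 0.264 (n = 21) in males. Single libraries of the other regions stood apart. In the BnST of bird 13 the genes lay 1.10 below their regional medians on the log2 scale (median over the 149), and in the Tn of bird 26 they lay 0.85 above. That Tn library held the highest Tn level of 44 of the 149 genes. In bulk tissue, fewer cells of a type and less RNA per cell cannot be told apart, and the part of dissection in these libraries was not tested.

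**Figure D2:**
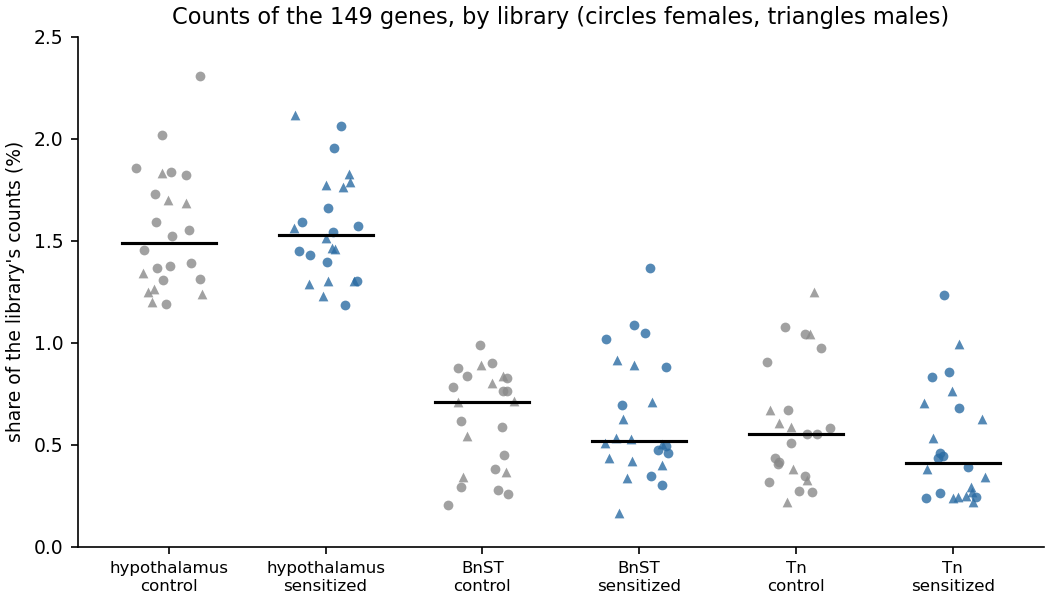
Share of each library's counts (%, vertical) taken by the 149 genes, by region and treatment, with 1 point per library (circles females, triangles males) and a bar at the median of 24 birds. Hypothalamus libraries lie between 1.19% and 2.31% in control and between 1.19% and 2.12% in sensitized birds, while BnST and Tn libraries spread from 0.166% to 1.36%.

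Sex was associated with 3 of the 149 genes in the hypothalamus (2.01%), against 5.12% of the 14563 genes tested. Of these, 2 were higher in males (3.74% of all genes) and 1 was lower in males (1.39% of all genes), by the quasi-likelihood test of edgeR with treatment as a covariate and Benjamini-Hochberg adjustment over all genes. The median sex difference over the 149 was -0.06 on the log2 scale (males minus females), against -0.01 over all genes. By direction, 103 of the 149 were lower in males, and 30.9% were higher, against 45.9% of all genes. Of the genes tested in the BnST 20.7% were higher in males (46.8% of all genes), and in the Tn 40.5% (47.4%). As these genes vary together from bird to bird, their directions are not separate observations.

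ENSCJPG00005011020 ran from 27.2 to 41.6 CPM (median 32.9) in 27 females and from 28.7 to 54.5 CPM (median 47.1) in 21 males. The lowest male value was that of bird 17, and the other males started at 36.2 CPM. Of the 21 males, 15 lay above every female. The difference was 0.45 ± 0.05 (log2, SE; adjusted p = 3.13e-09 by edgeR). In the BnST the same gene was at medians of 15.3 CPM in females and 21.9 CPM in males, with a difference of 0.48 ± 0.20 that missed the threshold (adjusted p = 0.307 by edgeR).

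ENSCJPG00005007971 was the other gene higher in males. It ran from 1.49 to 4.65 CPM (median 2.57) in females and from 2.22 to 8.27 CPM (median 3.82) in males, so that the groups overlapped widely, although 18 of 21 males lay above the female median. The difference was 0.64 ± 0.14 (log2, SE; adjusted p = 0.000913 by edgeR). In the BnST and Tn it was too low to be tested.

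ENSCJPG00005006000 was lower in males in every region. In the hypothalamus, females ran from 31.2 to 139 CPM (median 56.5) and males from 21.6 to 67.8 CPM (median 37.4), and 24 of 27 females lay above the male median. The difference was -0.72 ± 0.15 (log2, males minus females; adjusted p = 0.000563 by edgeR). In the BnST it was -1.26 ± 0.16 (adjusted p = 1.83e-08 by edgeR), with 19 of 27 females above every male. In the Tn it was -1.58 ± 0.17 (adjusted p = 1.76e-10 by edgeR), with 25 of 27 females above every male once bird 17 was left out and 15 of 27 with it. The smaller log2 difference in the hypothalamus was not shown to differ from that in the BnST (difference of differences 0.53 ± 0.22, adjusted p = 0.996 by edgeR over 14956 genes). That fit took the libraries of a bird as separate. With bird as a replicate block, the gene was not called either.

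**Figure D3:**
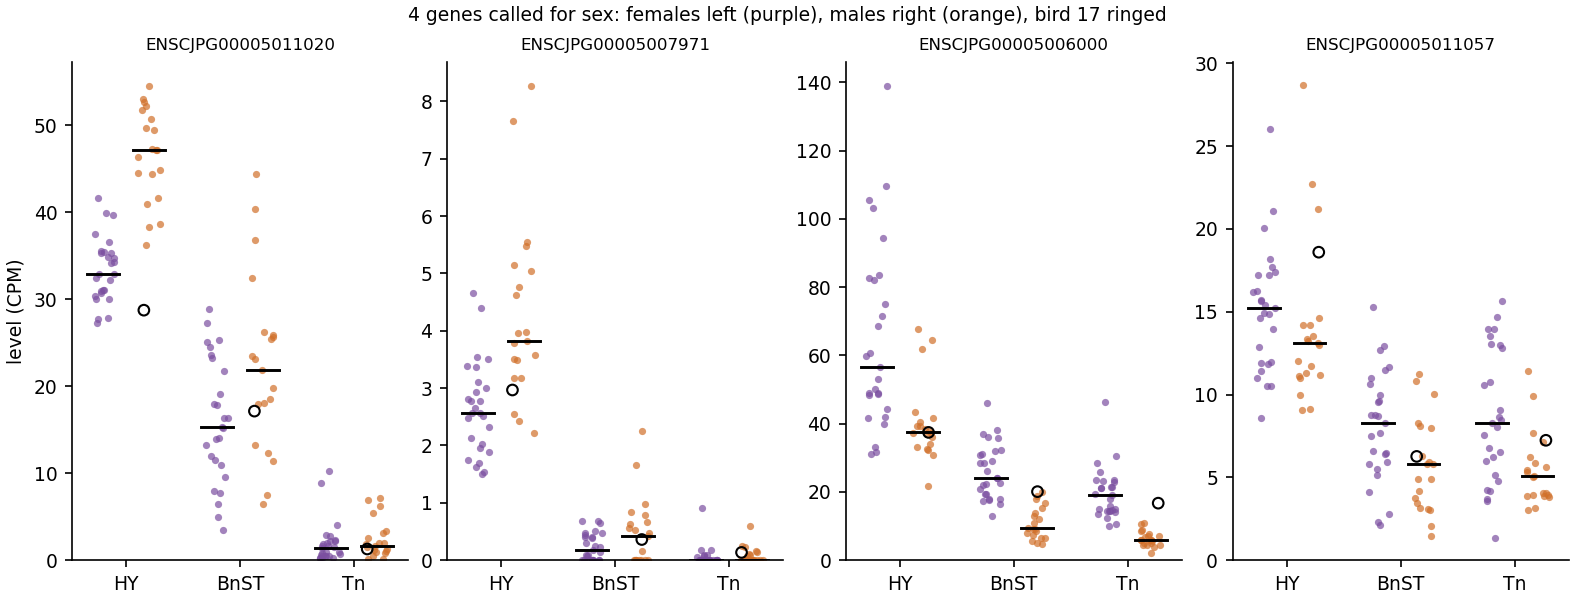
Level (CPM, vertical) of the 4 genes called for sex in any region, in each library of the hypothalamus (HY), BnST and Tn, females left in purple, males right in orange, bars at the medians and bird 17 ringed. ENSCJPG00005006000 is lower in males in all 3 regions, and ENSCJPG00005011020 is higher in males in the hypothalamus, at medians of 32.9 CPM in females and 47.1 CPM in males, with bird 17 within the range of the females.

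All 3 differences in the hypothalamus had the same direction within both bird number series. The titles give only the bird numbers, and the cut into series after bird 20 was set here. No label names a series or a batch. The series differ in their share of females (7 of 19 birds numbered up to 20, and 20 of 29 birds numbered above). The difference of ENSCJPG00005011020 in mean log2 CPM was 0.38 in the first series and 0.51 in the second, that of ENSCJPG00005007971 0.51 and 0.74, and that of ENSCJPG00005006000 -0.43 and -0.59. These genes were chosen on the same birds, so the values within series are given with no test. Without bird 17, all 3 passed the threshold again.

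In the BnST, 135 of the 149 genes passed the filter on low counts, and 1 of them was called for sex, ENSCJPG00005006000 (3.73% of all genes tested, 0.477% for those lower in males). In the Tn, 111 passed the filter and 2 were called, both lower in males (4.14% of all genes, 0.677% for those lower in males). The second was ENSCJPG00005011057, at 1.33 to 15.7 CPM (median 8.27) in females and 3.003 to 11.4 CPM (median 5.09) in males, a difference of -0.70 ± 0.19 (adjusted p = 0.0186 by edgeR). This call was lost with limma-voom (adjusted p = 0.323). The genes that pass such a filter are those with some expression outside the hypothalamus, so these counts do not stand for all 149.

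No gene of the 149 passed the test for sensitization treatment in the hypothalamus by edgeR (0 of 149, against 0.0207% of 14491 genes), and DESeq2 and limma-voom also called 0. At an unadjusted p under 0.05 there were 14 (9.4%, against 3.69% of all genes), of which 12 were higher in sensitized birds. The median difference over the 149 was 0.07 on the log2 scale (sensitized minus control), and 112 of 149 were above 0, against 48.6% of all genes. These genes vary together from bird to bird, so their directions are not separate observations. UCN3, which the study listed for treatment, met the regional rule but had been left out of the 149. In the hypothalamus it had medians of 20.97 CPM in control and 38.65 CPM in sensitized birds. The genes that the study listed were not removed from all genes. The 0 of 149 thus does not cover every gene high in the hypothalamus.

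The smallest p-values belonged to 2 genes of one covarying set described further on. ENSCJPG00005020174 ran from 13.9 to 47.2 CPM (median 29.5) in control birds and from 20.8 to 51.2 CPM (median 35.9) in sensitized birds, a difference of 0.26 ± 0.09 (unadjusted p = 0.00702, adjusted p = 1 by edgeR). ENSCJPG00005020175 ran from 3.80 to 11.4 CPM (median 7.05) and from 4.63 to 12.7 CPM (median 8.74) in the same order, a difference of 0.26 ± 0.10 (unadjusted p = 0.0105, adjusted p = 1 by edgeR). Both groups overlapped over most of their range.

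An interaction of treatment and sex passed the threshold for 0 of the 149 genes by edgeR (0% of all genes), DESeq2 and limma-voom, and 3 had an unadjusted p under 0.05 (3.34% of all genes). In the BnST, 132 of the genes could be tested and 0 were called by edgeR for treatment (0.0556% of all genes) or by limma-voom, with 0 at an unadjusted p under 0.05 by edgeR (5.53% of all genes). In the Tn, 109 could be tested and 0 were called by edgeR (0% of all genes) or by limma-voom, with 4 at an unadjusted p under 0.05 (4.76% of all genes). The first of these 4, ENSCJPG00005018444, had a difference of 1.92 ± 0.53 in the Tn, and 75.2 CPM in bird 26 against at most 10.3 CPM in any other Tn library. Without bird 26 its difference was 0.35 (adjusted p = 0.907 by edgeR).

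The treatment difference in the hypothalamus was also set against that in the BnST, and the sex difference likewise. For treatment, 0 of the 149 genes were called by edgeR (0% of all genes), and 4 had an unadjusted p under 0.05 (1.58% of all genes). For sex, 0 were called (0% of all genes), and 6 had an unadjusted p under 0.05 (4.12% of all genes). All 149 genes entered these fits, because the filter on low counts spanned both regions and their hypothalamus libraries could pass it. In the BnST alone, 132 passed for treatment and 135 for sex. The counts over 149 thus include genes too low in the BnST to be tested there. No other tool was run on these comparisons. In both, the smallest p was that of ENSCJPG00005006405, which had 20.7 CPM in the BnST library of bird 47 and at most 0.579 CPM in the other BnST libraries. Its treatment value was -3.93 ± 0.88 with bird 47 and -0.84 without, and its sex value turned from -2.98 to 0.57. With bird as a replicate block the values were -1.44 for treatment and -0.47 for sex.

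Birds of class R or S (17 sensitized, 5 control) were then compared with birds of class NR or NS (6 sensitized, 17 control). The fit had no treatment term, so class and treatment were partly confounded in it. None of the 149 genes passed the threshold by edgeR (0, against 0.0621% of 14488 genes) or limma-voom. DESeq2 also called 0, but it gave an adjusted p to only 117 of the 149. With treatment as a covariate, 0 of the 149 were called by edgeR as well. UCN3, which the study also listed for brooding, was again not among the 149. At an unadjusted p under 0.05 there were 24 genes (16.1%, against 9.97% of all genes), 15 higher and 9 lower in R or S. Of these, 11 belonged to a single covarying set of 18 genes (set 1, described further on), all higher in R or S. Genes that vary together are not separate observations, so the excess is not read as a trait of the list. The count of 24 became 14 without bird 17 and 10 with the bird number series as a covariate, with no share over all genes computed. Over all genes, those called after adjustment also went from 9 to 5 and to 4 in the same fits. The lower counts are thus not read as particular to the 149. In the fit as reported, ENSCJPG00005007715 had the smallest p. It ran from 6.56 to 22.6 CPM (median 16.9) in R, from 12.8 to 34.2 CPM (median 30.3) in NR, from 8.96 to 18.1 CPM (median 13.7) in S and from 11.2 to 29.1 CPM (median 17.5) in NS. It thus had its highest median in NR and its lowest in S, with overlap between all classes, and the difference of R or S from the others was -0.44 ± 0.14 (unadjusted p = 0.00405, adjusted p = 0.34 by edgeR).

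Among sensitized birds alone, 0 of the 149 genes were called between R and NR by edgeR (0% of all genes), DESeq2 or limma-voom, and 21 had an unadjusted p under 0.05 (5.33% of all genes). Of these 21, 10 belonged to set 1. Among control birds alone, 0 were called between S and NS by edgeR (0.00675% of all genes) or limma-voom, whereas DESeq2 called 3 of the 64 to which it gave an adjusted p, against 6.54% of all genes with one. At an unadjusted p under 0.05 there were 27 by edgeR (18.1%, against 19.4% of all genes).

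The comparison of S with NS rested on 5 birds, 4 of them female. ENSCJPG00005012637 ran from 19.9 to 33.5 CPM (median 23.96) in S and from 23.4 to 59.4 CPM (median 42.1) in NS, with a difference of -0.67 ± 0.16 (adjusted p = 0.0924 by edgeR). ENSCJPG00005007531 went the other way, from 3.27 to 7.35 CPM (median 5.62) in S and from 1.49 to 4.98 CPM (median 3.02) in NS, a difference of 0.76 ± 0.20 (adjusted p = 0.0964 by edgeR). Both passed with sex as a covariate (adjusted p = 0.0301 and 0.0436 by edgeR), when 5 of the 149 genes did, against 5.31% of all genes. Both also passed without the S bird numbered 11 (0.0462 and 0.0492), when 3 of the 149 did, against 1.21% of all genes. Bird 11 was the only male of class S, so this run and the one with sex as a covariate are not separate checks. Neither gene passed when any other S bird was left out. With the bird number series as a covariate, the differences were -0.49 and 0.74 (adjusted p = 0.388 by edgeR for both), and 3 of the 5 S birds but only 3 of the 17 NS birds were in the first series.

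Levels differed between birds more among these genes than among genes at large. The coefficient of variation over the 48 hypothalamus libraries had a median of 0.298 among the 149 and of 0.147 over all 13119 genes of at least 2 CPM, a description that does not take level into account. It was lowest for ENSCJPG00005010978, at 61.5 to 102 CPM, and highest for ENSCJPG00005012992, at 1.36 to 55.5 CPM with a median of 5.10 CPM. Pairs of the 149 genes had a median correlation over birds of 0.11 (Pearson, log2 CPM with 0.5 added, 48 birds), against 0.01 for pairs of other genes. These correlations share libraries and depth and are given as a description.

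Grouped by correlation, 69 of the 149 genes fell into 8 sets of 5 or more genes that rose and fell together over birds, and 80 into smaller sets or none. The largest, set 1, held 18 genes with a mean correlation of 0.72, among them the most abundant pair, ENSCJPG00005007160 and ENSCJPG00005010517 (0.95 is the highest correlation of any pair). Its median deviation ran from -0.81 (log2) in bird 44 to 0.80 in bird 2. In this set, ENSCJPG00005007160 alone spanned 1804 to 6506 CPM in the hypothalamus. Set 3 held 10 genes, including the first of the list, ENSCJPG00005012514, and ran from -1.28 in bird 23 to 0.96 in bird 27. Set 8, of 5 genes including ENSCJPG00005016487, had the widest swing, from -1.40 in bird 16 to 1.36 in bird 5.

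**Figure D4:**
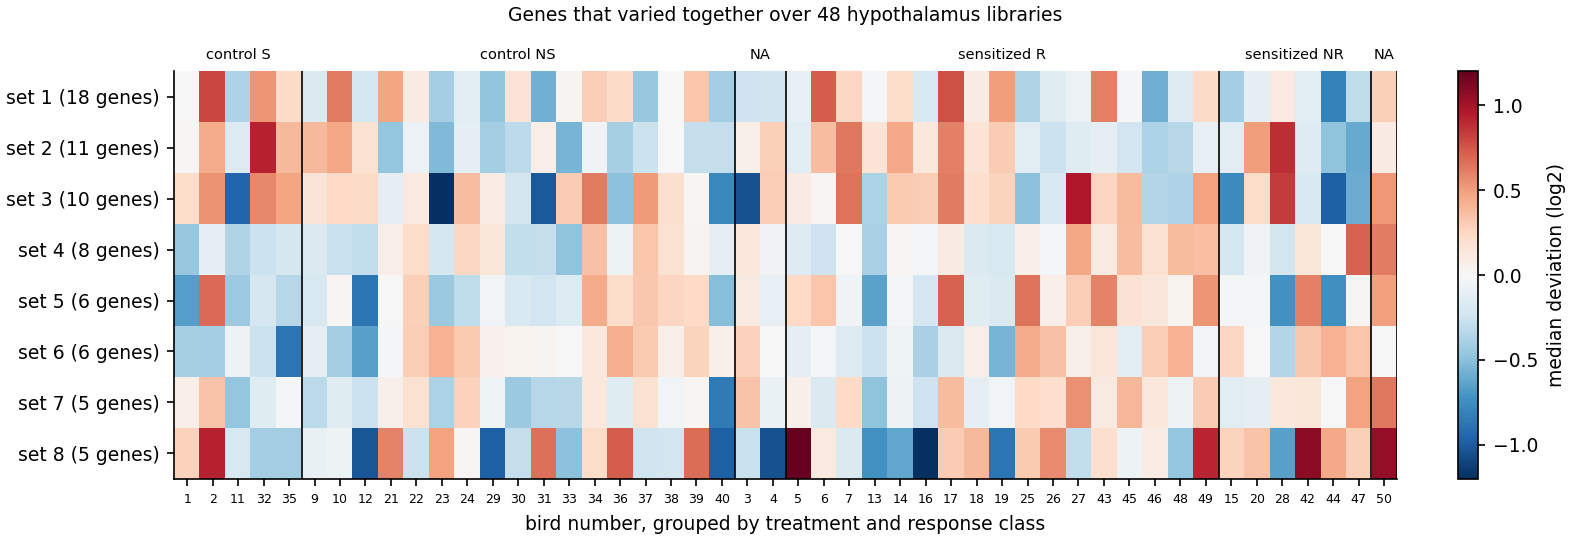
Median deviation from the mean (log2 scale, colour, red higher and blue lower) of each of 8 sets of covarying genes (rows) in the hypothalamus of 48 birds (columns), ordered by treatment and response class, with NA for birds with no class. Every class holds birds of both colours in set 1, which runs from -0.81 in bird 44 to 0.80 in bird 2, while the 5 S birds are all on the blue side in sets 4 and 6. Both of these sets also had lower medians in the birds numbered up to 20, which include 3 of the 5 S birds.

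A bird that was high for a set in the hypothalamus was not reliably high for it elsewhere. Between the hypothalamus and the BnST of the same bird the correlation of the set values ran from 0.13 to 0.39 over the 8 sets, and between the hypothalamus and the Tn from -0.18 to 0.18 (48 birds each).

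By class, set 1 had medians of -0.02 in R (-0.58 to 0.77), -0.22 in NR (-0.81 to 0.11), 0.23 in S (-0.37 to 0.80) and 0.00 in NS (-0.58 to 0.63). The ranges overlapped, and all 18 genes had a higher mean in R than in NR, 10 of them at an unadjusted p under 0.05 (against 5.33% of all genes) and 0 after adjustment by edgeR. Set 6, of 6 genes, had a median of -0.40 in S (-0.87 to -0.06) and 0.06 in NS (-0.65 to 0.44), and all of its genes were lower in S, by a median of 0.44. Set 2, of 11 genes, was higher in S, at 0.39 (-0.16 to 0.93) against -0.26 (-0.56 to 0.46) in NS, but at -0.10 in R and -0.15 in NR. It also differed between the number series, with medians of 0.28 up to bird 20 and -0.23 above. So did set 6, with medians of -0.119 and 0.125 in the same order. As 3 of the 5 S birds but only 3 of the 17 NS birds were numbered up to 20, class and series cannot be told apart here. By treatment, set 8 had medians of 0.23 (-1.40 to 1.36) in sensitized and -0.20 (-1.05 to 0.93) in control birds. Since the genes of a set were grouped by moving together, their agreement in direction is not evidence beyond that of 1 gene.

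In contrast with the sets, 3 genes had levels in the hypothalamus that correlated over birds with those in both other regions. Over the 149 genes, the correlation between the hypothalamus and the BnST of the same bird had a median of 0.19, against 0.30 over all genes of at least 2 CPM. It was 0.87 for ENSCJPG00005018613, 0.87 for ENSCJPG00005019990 and 0.73 for ENSCJPG00005001667, and these were the 3 of the 149 genes with a correlation above 0.7 with both other regions. Over all genes of at least 2 CPM, the correlation with the BnST reached 0.993. The share of all genes above 0.7 was not computed, so the count is not read as particular to the 149. ENSCJPG00005018613 ran from 5.27 to 155 CPM in the hypothalamus, from 4.003 to 97.6 CPM in the BnST and from 1.84 to 100.2 CPM in the Tn. ENSCJPG00005019990 ran from 0.092 to 7.89 CPM in the hypothalamus and was lowest in bird 5 there. In the BnST it was at 0 in 3 libraries, bird 5 among them. ENSCJPG00005001667 was at 0 in 4 hypothalamus libraries, bird 17 among them, and reached 21.5 CPM in bird 37. None of these 3 passed a test of treatment, sex or class in the hypothalamus by edgeR, with unadjusted p from 0.215 to 0.89.

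**Figure D5:**
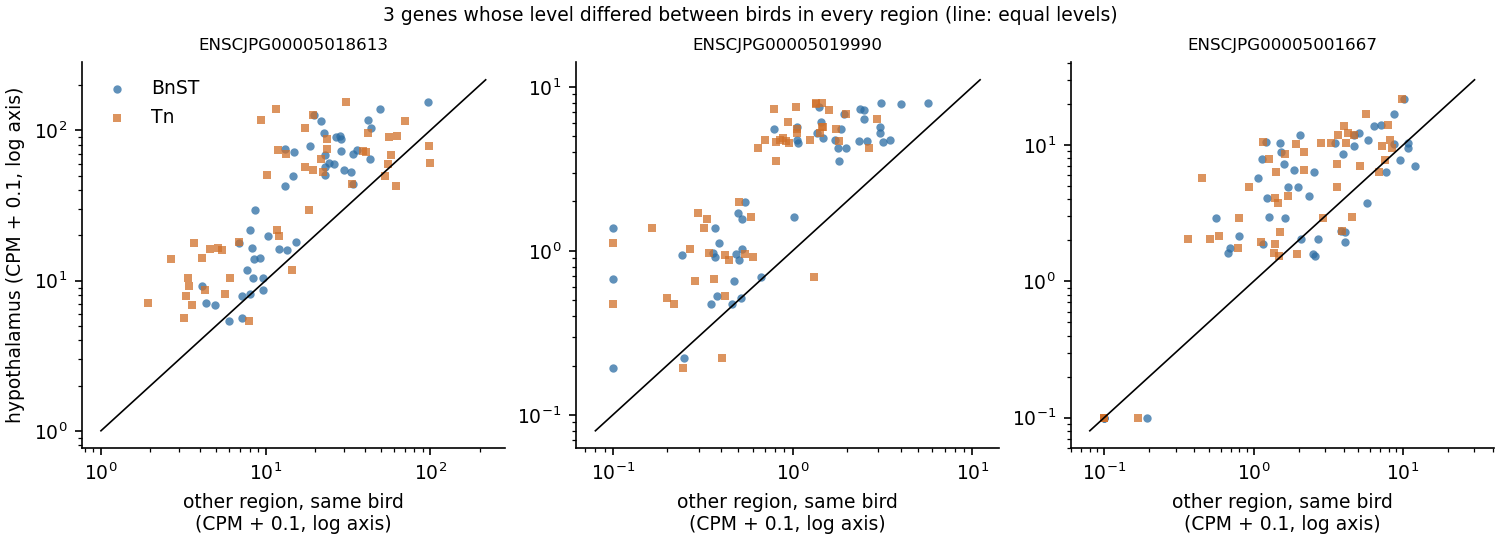
Level in the hypothalamus (vertical, CPM + 0.1, log axis) against the level in the BnST (blue circles) or Tn (orange squares) of the same bird (horizontal, CPM + 0.1, log axis), 48 birds, for the 3 genes with a correlation above 0.7 with both other regions, with a line at equal levels. Levels in the hypothalamus and BnST of the same bird correlated at 0.73 to 0.87.

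Of the named genes that the study listed, those with a correlation beyond 0.5 in either direction with at least 6 of the 149 over the hypothalamus libraries were PLCD1, NTS, KLF2, EGR1, EGR4 and NR4A3. PLCD1, a phospholipase C that cleaves membrane phosphoinositides, had a correlation over 0.5 with 15 of them, and 0.61 with the values of set 1. NTS had 6 such genes, the closest being ENSCJPG00005020175 (0.64), and 0.62 with set 7, which also holds ENSCJPG00005020174. KLF2, a zinc finger transcription factor, had 6 over 0.5, the closest being ENSCJPG00005016487 (0.65), and 2 under -0.5, with 0.59 for set 8. EGR1, an immediate early transcription factor induced by neuronal activity, had no correlation over 0.5 and 8 under -0.5, the lowest with ENSCJPG00005013909 (-0.63). EGR4, of the same family, had 6 under -0.5, the lowest with ENSCJPG00005005915 (-0.57). NR4A3, an orphan nuclear receptor, had 6 under -0.5, the lowest with ENSCJPG00005020117 (-0.58). UCN3, given by region above, had 2 over 0.5, the closest being ENSCJPG00005018444 (0.56). These are Pearson correlations over 48 birds of both treatments that share depth and dissection, and they are given with no test. The study listed these named genes for treatment or brooding, and the part of treatment in the correlations was not tested. No share over all genes was computed, so the counts are not read as particular to the 149.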

How the data were processed

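RNA of 3 brain regions was sequenced per bird. Per the study's methods, the authors mapped paired reads with HISAT2 to the Ensembl assembly Coturnix_japonica_2.0 and counted reads per gene with HTSeq. Tool settings, versions of these tools and strand handling are not given in the sources used here, so overlapping genes and near copies may share reads. The deposited table holds raw counts per gene, not normalized, for every library, each matched to its bird by title. No column was left without a sample.

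The 149 genes, the lists and the tests were chosen with earlier results of these data known. Genes were taken by the rule in the text. Marker lists by gene symbol could not be applied, since the sources used here pair the identifiers of these genes with no symbols. Named were, per comparison, the genes past the threshold (at most 2 in each direction by identifier) or otherwise the 2 with the smallest p, with the head and edge of the list and the extremes of variation. The genes with the closest correlation to named genes, the sets, the genes correlated between regions and those of single libraries were chosen after their values were seen.

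Tests used edgeR 4.0.16 in R 4.3.3 (TMM, filterByExpr with a minimum count of 10, robust quasi-likelihood F test, standard error from the F statistic) over all genes passing the filter, p-values being adjusted by Benjamini-Hochberg and called under 0.05; the fits were checked on simulated counts. Alternatives used DESeq2 1.42.0 (likelihood ratio test) and limma 3.58.1 (voom). Sets came from average linkage of 1 minus the correlation, at a distance of 0.5. Counting error is small beside the spread between birds, each of which is a separate animal.

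Libraries of 1 bird deviated together: over genes, the deviations of its hypothalamus and BnST libraries from the regional means correlated at a median of 0.463 (0.226 to 0.607 over 48 birds), and comparisons of regions, fitted without a block, were repeated with bird as a replicate block.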

Additional observations from a re-analysis of the deposited data

Results flagged for a closer look

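Within groups of 4 to 10 libraries of the same region, sex, treatment and class, single libraries lay apart from the rest in 13 of 130 checks. The checks covered 26 items in 5 groups each. They reuse the same libraries and genes that vary together, so the 13 are not set against a rate expected by chance. Bird 2, 1 of 4 control females of class S, accounted for several: its Tn library had 1.04% of counts in the 149 genes, against 0.345% in the next, and in the hypothalamus it had 50.4 CPM of ENSCJPG00005002248 (next 11.8), 313 CPM of ENSCJPG00005009332 (next 49.6), 6.27 CPM of ENSCJPG00005019990 (next 1.61), 10.4 CPM of ENSCJPG00005020175 (next 6.90) and, on the low side, 2.92 CPM of ENSCJPG00005006405 (next 3.82). Among the 7 control males of class NS, bird 12 had 67.8 CPM of ENSCJPG00005006000 (next 43.4), bird 21 had 22.7 CPM of ENSCJPG00005011057 (next 14.2) and 7.20 CPM of ENSCJPG00005019990 (next 1.46), bird 9 had 55.5 CPM of ENSCJPG00005012992 (next 6.75) and bird 31 had 27.4 CPM of ENSCJPG00005007715 (next 17.5). Among the 9 sensitized birds labelled male of class R, bird 17 had 528 CPM of ENSCJPG00005012514 (next 342) and bird 46 had 64.4 CPM of ENSCJPG00005006000 (next 41.8).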

How the results depend on the processing

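Counts of genes called kept within 1.5 times of the reported count under every alternative for treatment, sex (3 to 4 genes, the same 3 in each), class, R against NR and sex by treatment in the hypothalamus, for treatment and sex in the BnST, treatment in the Tn and for both comparisons of regions. Between S and NS, where 0 were called as reported, DESeq2 called 3, sex as a covariate gave 5, and leaving out 1 S bird at a time gave 0 to 3. In these fits ENSCJPG00005012637 passed (adjusted p from 0.0117 to 0.0462), and the number of genes called overall rose from 1 to 180 without S bird 11, to 787 when sex was a covariate and to 574 by DESeq2. In the Tn, limma-voom called 1 gene for sex in place of 2. With bird as a replicate block, 0 of the 149 genes were called in either comparison of regions, as without it. The sex by region value of ENSCJPG00005006405 reversed, to 0.57, without bird 47. The list kept 108 to 130 of 149 genes under other scalings, offsets and subsets of birds, and 68 under all of them. The runs without bird 26, without bird 17 in the BnST and Tn, and without bird 47 were chosen after seeing the data. DESeq2 gave no adjusted p for genes of low counts, so its counts cover 64 of the 149 genes between S and NS and 117 for class. With 5 S and 6 NR birds, differences within treatments were estimated with wide errors. The cause of the differences between tools was not tested.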
